A study of Mus musculus with 12 samples.

Results

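The *Dnmt* and *Tet* genes encode the enzymes that write and remove cytosine methylation, and 8 genes of this machinery were followed here: *Dnmt1*, *Uhrf1*, *Dnmt3a*, *Dnmt3b*, *Dnmt3l*, *Tet1*, *Tet2* and *Tet3*. They were chosen by gene name, without regard to their values, from a deposited table of 55385 mouse genes, and each matched 1 row. RNA-seq was available for 12 libraries in 6 groups of 2, all from sorted spermatogonia of adult testes. Values are TPM, a unit in which reads are divided by transcript length and each library is scaled to the same total. A value is thus a share of its library, so a difference between libraries can also reflect changes in other genes.

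WT Aundiff (undifferentiated spermatogonia, sorted as E-cadherin+, high in CD9 and KIT-) and WT Adiff (early differentiating spermatogonia, medium in CD9 and KIT+) came from C57BL/6J males of 2 to 3 months. The other 8 libraries were Aundiff of mice on a mixed FVB and C57BL/6J background in which *Ring1* was deleted in all animals, controls included. PRC1ctrl mice were *Ring1*-/- *Rnf2* F/+ with *Ddx4*-Cre, and PRC1cKO mice were *Ring1*-/- *Rnf2* F/- with *Ddx4*-Cre, a Cre driven by a germ cell promoter. RING1 and RNF2 are the catalytic subunits of Polycomb repressive complex 1 (PRC1), and where Cre acts the controls keep 1 *Rnf2* allele and PRC1cKO none. One pair of groups was taken untreated at 2 mo of age. The other pair received daily injections of 50 μl of Win18446 at 40 μg/μl in DMSO, about 30 in number, from 1 month of age, and so were of about the same age as the untreated mice when sampled; this compound blocks retinoic acid synthesis and thereby spermatogonial differentiation. Each library pooled cells: about 7000 for the 2 mo libraries, which were made with a low-input Smart-Seq2 kit, and 100000 to 150000 for the others, made with a TruSeq stranded kit for polyadenylated RNA.

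*Ring1* was at 8.61 to 19.9 TPM in the 4 WT libraries and at 0.03 to 0.25 TPM in the 8 others. *Rnf2* was not lower under the label PRC1cKO: it was at 28.26 and 47.63 TPM in PRC1ctrl and at 56.73 and 67.48 TPM in PRC1cKO at 2 mo, and at 78.09 and 67.16 TPM against 86.17 and 93.14 TPM after Win18446. TPM over the whole gene does not show whether a floxed segment was removed, so these libraries are called by their labels. Markers of undifferentiated spermatogonia were present in all Aundiff groups, with all 9 listed genes at 1 TPM or more in both libraries, as were 7 of the 9 in WT Adiff. Their summed TPM was 981 to 1111 in WT Aundiff and 288 to 322 in WT Adiff. Of the 9, 8 were lower in WT Adiff at an adjusted p under 0.05 (limma, described below). *Kit*, the receptor used in the sort, was at 246.76 and 244.58 TPM in WT Adiff against 1.64 to 21.96 TPM in the 10 Aundiff libraries. At 2 mo the summed TPM of the 9 genes was 905 to 1179 in PRC1ctrl and 418 to 504 in PRC1cKO. That of 6 markers of differentiating spermatogonia was 194 to 226 in PRC1ctrl and 513 to 533 in PRC1cKO. In WT the sum of these 6 was 231 to 242 in Aundiff and 1851 to 1910 in Adiff. All 6 were higher in WT Adiff at an adjusted p under 0.05 (limma). Spermatid markers were not absent: the summed TPM of 6 such genes, *Prm1* among them, was 763 to 840.2 in WT Aundiff, 521 to 706 in WT Adiff, 751 to 1748 in PRC1ctrl and 57.8 to 64.0 in PRC1cKO at 2 mo, and 123 to 135 and 23.3 to 25.4 after Win18446. In such bulk samples, fewer cells of a type and less RNA per cell cannot be told apart.

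DNA methylation in mammals sits mainly on CpG dinucleotides. DNMT1, recruited by UHRF1 to newly replicated DNA, copies the mark to the daughter strand, whereas DNMT3A and DNMT3B place it on unmethylated DNA and DNMT3L, which has no catalytic activity of its own, stimulates them in germ cells. TET1, TET2 and TET3 oxidise 5-methylcytosine, the first step of active removal.

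The maintenance genes *Dnmt1* and *Uhrf1* are shown first by sequence, because they rose together in WT Adiff. For RefSeq start sites on GRCm38.p6, windows from 250 bases before to 50 bases after a start were searched on both strands for TTTNNCGC, an E2F-type motif, which was picked after expression results were known. *Uhrf1* (chromosome 17, 56303321 to 56323486, plus strand) had a match in both of its windows, and *Dnmt1* (chromosome 9, 20907209 to 20959888, minus strand) had 3 matches, of which 2 overlap each other, in 1 of its 3 windows. The 10 windows of the other 6 genes held none. Of all 32851 windows 5.17% held the motif, and of 27025 genes 5.93% had it in any window. The motif itself contains a CG, and these shares were not matched for CG content. The *Dnmt1* window with matches held 33 CG and the *Uhrf1* windows 12 and 33, where the median window held 7. *Dnmt3b* and *Tet3*, which also rose in WT Adiff, were among the 6 genes without a match. No enrichment is read from these shares. Matches are in capitals in the following windows.

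Dnmt1, chr9:20952574-20952873, minus strand: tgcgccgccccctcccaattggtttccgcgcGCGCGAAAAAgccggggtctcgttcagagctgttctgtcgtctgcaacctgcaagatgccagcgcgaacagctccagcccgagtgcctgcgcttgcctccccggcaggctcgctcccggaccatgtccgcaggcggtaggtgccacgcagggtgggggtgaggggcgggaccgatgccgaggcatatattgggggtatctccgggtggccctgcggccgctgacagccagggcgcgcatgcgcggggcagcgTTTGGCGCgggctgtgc

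Uhrf1, chr17:56304063-56304362, plus strand: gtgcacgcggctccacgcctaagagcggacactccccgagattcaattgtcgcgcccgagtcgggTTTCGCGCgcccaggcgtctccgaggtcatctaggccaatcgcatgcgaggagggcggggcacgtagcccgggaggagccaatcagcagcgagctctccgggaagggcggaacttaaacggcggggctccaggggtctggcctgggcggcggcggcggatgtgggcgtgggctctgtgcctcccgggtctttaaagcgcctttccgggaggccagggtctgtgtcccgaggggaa

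In *Dnmt1* the overlapping matches began 219 and 217 bases before the start site on the opposite strand and the third began 33 bases after it on the strand shown, and in the *Uhrf1* window shown the match began 185 bases before it. A match of letters is a description and does not show that a factor binds there.

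The windows of *Tet2* (chromosome 3, 133463679 to 133545139, minus strand) and *Tet3* (chromosome 6, 83362373 to 83459084, minus strand), the genes with the largest changes among the 8 between the PRC1 labels after Win18446, are given with each CG in capitals.

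Tet2, chr3:133544341-133544640, minus strand: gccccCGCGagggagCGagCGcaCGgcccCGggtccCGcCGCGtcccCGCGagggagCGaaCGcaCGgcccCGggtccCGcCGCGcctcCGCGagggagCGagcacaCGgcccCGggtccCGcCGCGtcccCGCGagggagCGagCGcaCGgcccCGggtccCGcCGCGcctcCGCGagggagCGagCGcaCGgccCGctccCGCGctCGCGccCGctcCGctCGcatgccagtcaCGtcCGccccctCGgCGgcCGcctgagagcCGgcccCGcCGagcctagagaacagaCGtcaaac

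Tet3, chr6:83441629-83441928, minus strand: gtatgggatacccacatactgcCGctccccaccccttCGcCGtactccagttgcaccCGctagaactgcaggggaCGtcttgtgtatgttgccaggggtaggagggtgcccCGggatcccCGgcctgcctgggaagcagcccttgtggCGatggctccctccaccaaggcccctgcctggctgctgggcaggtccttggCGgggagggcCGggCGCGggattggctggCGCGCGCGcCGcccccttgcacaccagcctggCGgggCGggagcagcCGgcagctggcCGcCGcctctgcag

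The *Tet2* window held 57 CG, more than 99.8% of all windows, and the *Tet3* window held 22, more than 76.9%, where the median window held 7. *Tet1* had 17 in its window, the *Dnmt3b* window 30, the *Dnmt3a* windows 18 to 47, and the *Dnmt3l* windows 3 to 6.

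The levels of the 8 genes spanned a wide range. By mean TPM over the 12 libraries, *Dnmt3a* lay above 97.1%, *Dnmt1* above 96.9% and *Uhrf1* above 96.2% of all genes, and *Tet1* and *Tet2* were the lowest of the 8, with medians of 0.625 and 0.825 TPM. The 4 libraries at 2 mo were lower than each of the 8 other libraries for 5 of the 8 genes (*Dnmt1*, *Uhrf1*, *Dnmt3a*, *Dnmt3b* and *Tet3*), as were 34.3% of 19210 genes, and were higher for 0 of the 8, against 10.8% of genes. The 2 mo libraries also differed in kit, had fewer genes at 1 TPM or more (12422 to 13986, against 14796 to 16599) and a larger mitochondrial share (12.5% to 16.7%, against 4.28% to 6.69%). Kit and treatment cannot be told apart there from the Win18446 groups, nor kit, strain and genotype from the WT groups, so levels at 2 mo are not set against the others by a test.

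**Figure D1:**
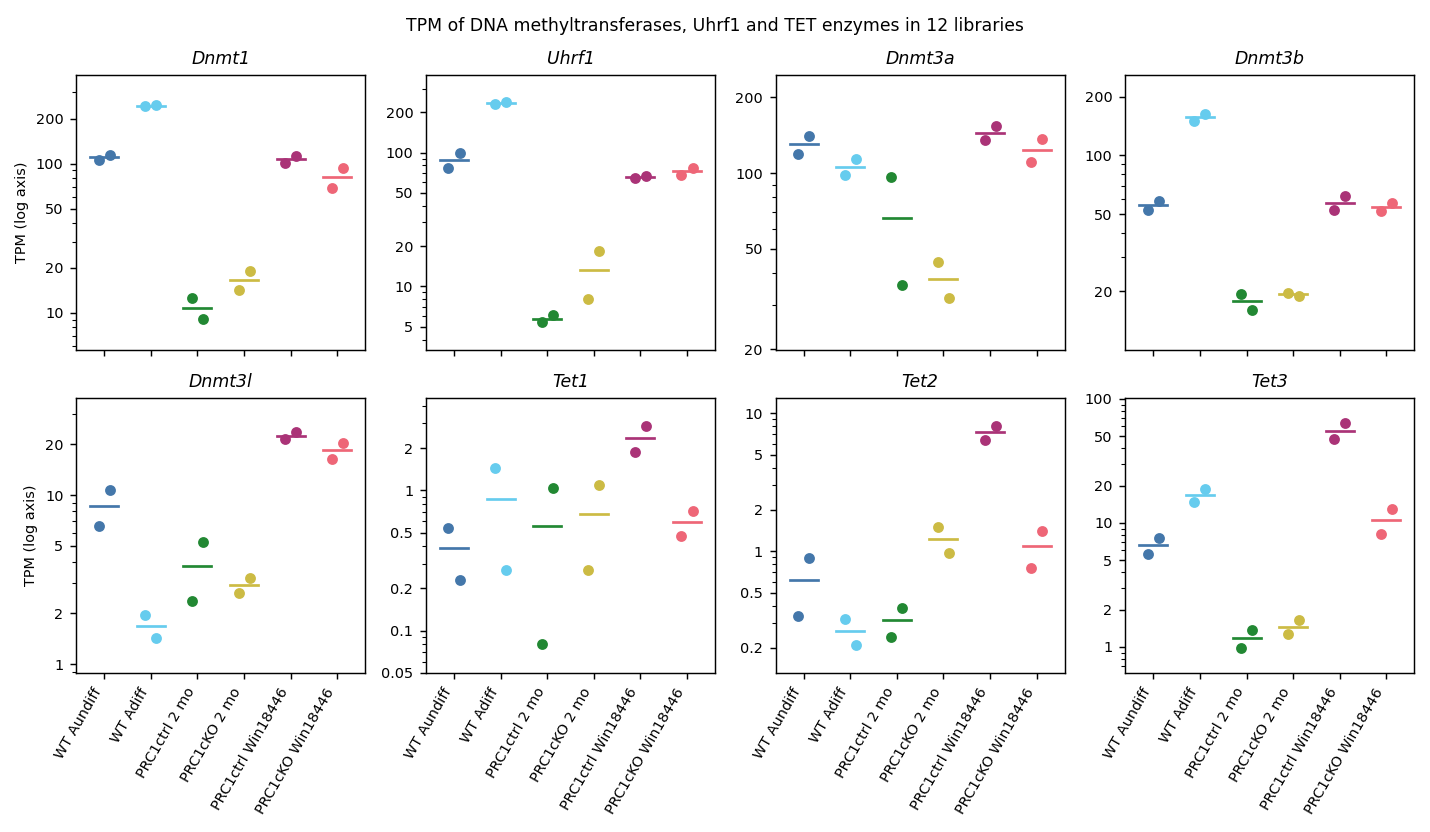
TPM (log axis, scaled separately in each panel) of the 8 genes in 12 libraries; points are libraries and bars are the means of 2. *Dnmt1*, *Uhrf1* and *Dnmt3b* were highest in WT Adiff, and the *Tet* genes were highest in PRC1ctrl after Win18446.

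WT Adiff were compared with WT Aundiff to ask which genes change when spermatogonia begin to differentiate. Of the 6 genes tested, 4 rose by more than 1 on the log2 scale (*Dnmt1*, *Uhrf1*, *Dnmt3b* and *Tet3*), where 11.1% of 15470 genes were called higher, and 1 fell (*Dnmt3l*), where 9.24% were called lower. Calls needed an adjusted p under 0.05 (limma on log2(TPM + 1), Benjamini-Hochberg over all genes tested) and a log2 fold change beyond 1 either way. *Tet1* and *Tet2* did not reach 1 TPM in at least 2 of the 4 libraries and were not tested. Whether or not they passed, 4 genes lay higher in both Adiff libraries than in both Aundiff libraries, as did 43.4% of genes, and 2 lay lower (*Dnmt3a* and *Dnmt3l*), as did 28.7%. Of the genes called, 54.7% were higher with TPM as deposited and 40.0% under median-of-ratios scaling, where the rise of *Dnmt1*, at 0.97, fell under the fold limit and 3 of the 6 genes tested were called higher.

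*Dnmt1* was at 106.2 and 113.51 TPM in WT Aundiff and at 241.54 and 246.68 TPM in WT Adiff. *Uhrf1* was at 76.42 and 98.47 TPM in WT Aundiff and at 231.28 and 239.2 TPM in WT Adiff. Both were higher in each Adiff library than in either Aundiff library, and the gap was larger than the spread within either group. On the log2 scale *Dnmt1* rose by 1.15 ± 0.12 (SE, n = 2 per group), 2.21-fold (adjusted p = 0.00171, limma). *Uhrf1* rose by 1.43 ± 0.15, 2.69-fold (adjusted p = 0.00194, limma). The ratio of *Uhrf1* to *Dnmt1* TPM was 0.720 and 0.868 in WT Aundiff and 0.958 and 0.970 in WT Adiff.

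Across the 6 groups *Dnmt1* was lowest in PRC1ctrl at 2 mo (mean 10.8 TPM), followed by PRC1cKO at 2 mo (16.6), PRC1cKO after Win18446 (80.8), PRC1ctrl after Win18446 (107), WT Aundiff (109.9) and WT Adiff (244). The values of PRC1ctrl after Win18446 and WT Aundiff overlapped, and the other neighbours did not. The order for *Uhrf1* was the same except that PRC1ctrl after Win18446 (65.7 TPM) was below PRC1cKO after Win18446 (72.4 TPM), and only the latter overlapped with its upper neighbour, WT Aundiff (87.4 TPM). The genes closest to *Uhrf1* over the 12 libraries, by Pearson correlation of log2(TPM + 1) among 10992 genes with a mean of at least 5 TPM, were *Mcm2*, a subunit of the replicative helicase (r = 0.999), and *Tbl3* (r = 0.995). Those closest to *Dnmt1* were *Raver1* (r = 0.994) and *Fbxo9* (r = 0.994). These correlations also carry the split between kits and are given without a test.

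The summed TPM of 17 S phase genes, which include the *Mcm2* to *Mcm7* helicase subunits and the ribonucleotide reductase genes, was 1440.3 and 1567 in WT Aundiff and 2919.5 and 2953 in WT Adiff. Of these genes, 16 were higher in WT Adiff at an adjusted p under 0.05 (limma), 8 of them beyond the fold limit, and 0 were lower; the list's median log2 fold change was 0.98, against 0.15 over all genes. *Ccne2*, which encodes cyclin E2, rose 4.86-fold and *Rrm2* 3.48-fold. Over the 8 TruSeq libraries, log2(TPM + 1) of *Uhrf1* followed this sum with r = 0.99, *Dnmt3b* with r = 0.94, *Dnmt1* with r = 0.91 and *Dnmt3l* with r = -0.96, and over all 12 libraries these were 0.46, 0.49, 0.37 and -0.65. Within the 4 libraries at 2 mo they were 0.87, 0.27, 0.73 and -0.04. For *Dnmt3a*, *Tet1*, *Tet2* and *Tet3*, the last of which also rose in WT Adiff, r over the 8 TruSeq libraries was -0.71, -0.34, -0.71 and -0.24. The WT Adiff libraries stand at the far end of both measures, and the values are descriptions. The part of cell cycle state in the rise of *Dnmt1* and *Uhrf1* was not tested.

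**Figure D2:**
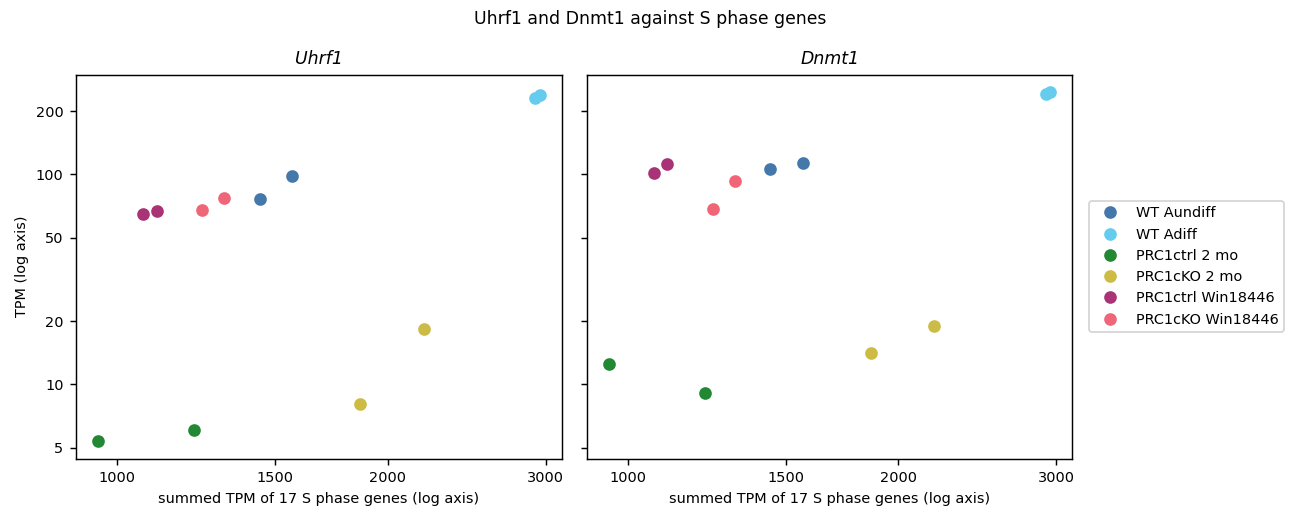
TPM of *Uhrf1* and *Dnmt1* (log axes) against the summed TPM of 17 S phase genes in the same library; each point is 1 of 12 libraries. Both genes were highest in WT Adiff, where the S phase sum was 2919.5 and 2953, and the 4 libraries of the 2 mo groups lay below the 8 others for both genes.

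The de novo methyltransferases did not change together. *Dnmt3a* was at 119.52 and 140.36 TPM in WT Aundiff and at 97.96 and 113.68 TPM in WT Adiff. *Dnmt3b* was at 52.54 and 58.66 TPM in WT Aundiff and at 151.09 and 162.98 TPM in WT Adiff. *Dnmt3b* was thus below *Dnmt3a* in both Aundiff libraries and above it in both Adiff libraries, and *Dnmt3a* made up 69.5% and 70.5% of their sum in Aundiff and 39.3% and 41.1% in Adiff. *Dnmt3b* rose by 1.48 ± 0.13 on the log2 scale (SE, n = 2 per group), 2.79-fold (adjusted p = 0.00129, limma). The log2 fold change of *Dnmt3a* was -0.29 (95% interval -0.65 to 0.06, adjusted p = 0.159, limma) and passed the test at an adjusted p of 0.0482 under median-of-ratios scaling (-0.47) and of 0.0322 with a correction for transcript length (-0.56).

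*Dnmt3l* (chromosome 10, 78041947 to 78063622, plus strand) went the other way. It was at 6.57 and 10.66 TPM in WT Aundiff and at 1.96 and 1.42 TPM in WT Adiff. Both Adiff libraries lay below both Aundiff libraries, and *Dnmt3l* fell by 1.81 ± 0.30 on the log2 scale (SE, n = 2 per group), 3.51-fold (adjusted p = 0.0063, limma). *Aire* overlaps 2.24% of its exonic bases on the opposite strand.

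Among the groups, *Dnmt3b* was highest in WT Adiff (mean 157 TPM). The other TruSeq groups stood at 54.3 to 57.1 TPM with overlapping values, and the 2 mo groups at 17.8 and 19.4 TPM, which overlapped as well. *Dnmt3a* had the narrowest order: the TruSeq groups ran from 106 TPM in WT Adiff to 145 TPM in PRC1ctrl after Win18446, each overlapping its neighbour. *Dnmt3l* was lowest in WT Adiff (1.69 TPM) and highest in PRC1ctrl after Win18446 (22.4 TPM), and the TruSeq groups did not overlap one another. The closest patterns to *Dnmt3a* were *Dhx8* (r = 0.963) and *Cnot11* (r = 0.947), to *Dnmt3b* *Smtnl2* (r = 0.988) and *Slc8b1* (r = 0.987), and to *Dnmt3l* *Ubash3b* (r = 0.991) and *Gm47461* (r = 0.986).

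*Tet3* was at 5.67 and 7.56 TPM in WT Aundiff and at 14.79 and 18.75 TPM in WT Adiff. The groups did not overlap, and *Tet3* rose by 1.22 ± 0.23 on the log2 scale (SE, n = 2 per group), 2.34-fold (adjusted p = 0.00919, limma). With the length correction the rises of *Tet3* and *Dnmt1* were 0.95 and 0.91, under the fold limit but past the adjusted p, and 2 of the 6 genes were then called higher. *Tet1* was at 0.54 and 0.23 TPM in WT Aundiff and at 1.45 and 0.27 TPM in WT Adiff, which overlapped. *Tet2* was at 0.34 and 0.89 TPM in Aundiff and at 0.32 and 0.21 TPM in Adiff. *Tet3* thus made up 86.6% and 87.1% of the summed TPM of the 3 *Tet* genes in Aundiff and 89.3% and 97.5% in Adiff.

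Genes that work with these enzymes were followed as lists, read at an adjusted p under 0.05 at any fold (limma), a mark that 23.4% of all genes passed upward and 14.7% downward. Among 9 partners of maintenance methylation 5 rose and 1 fell. *Hells*, a chromatin remodeller needed for methylation, rose 2.41-fold and *Usp7*, a deubiquitinase that binds DNMT1, 2.11-fold, while *Cdca7l* fell by 0.51 on the log2 scale. Among 10 tested genes of de novo methylation in germ cells 3 rose and 3 fell. *Tex15* rose 2.41-fold and *Setd2*, an H3K36 methyltransferase, 2.22-fold. *Spocd1* fell 7.64-fold and *Piwil4* 3.03-fold; these and *Tex15* belong to the piRNA-directed methylation of transposons. *Dnmt3c*, a rodent methyltransferase of fetal male germ cells, was at 0.03 to 0.4 TPM in all 12 libraries and was not tested.

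Of 7 readers of methylated CpG 0 passed in either direction. Among 11 genes of demethylation and base excision 3 rose and 1 fell, with *Gadd45b* up 3.84-fold and *Gadd45g* up 2.23-fold, both stress-induced regulators of repair, and *Neil2*, a DNA glycosylase, down by 0.51 on the log2 scale. Among 9 partners of TET and enzymes that supply 2-oxoglutarate, their cosubstrate, 2 rose (*Zfp281* 2.14-fold and *Dcaf1* 1.93-fold) and 1 fell (*Ogt*, the O-GlcNAc transferase that binds TET proteins, 1.82-fold). A list of 12 genes covered the S-adenosylmethionine cycle, which supplies the methyl group, and genes related to it, such as *Amd1* and *Ahcyl1*. Of these, 6 rose and 2 fell, with *Amd1* up 2.05-fold, *Mtr*, methionine synthase, down 2.30-fold and *Mat2b* down 1.65-fold. The median log2 fold changes of these 6 lists lay between 0.04 and 0.51, against 0.15 over all genes.

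**Figure D3:**
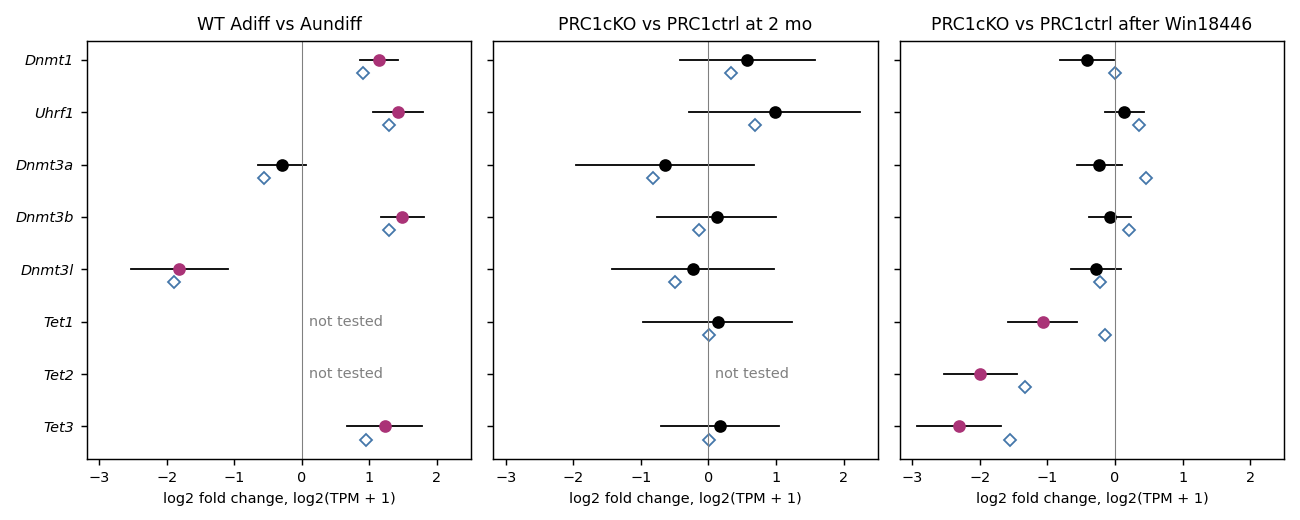
Log2 fold changes (circles, with 95% intervals) of the 8 genes in 3 comparisons, each of 2 against 2 libraries; purple marks an adjusted p under 0.05 and open diamonds give the value after a correction for transcript length. In WT, 4 genes rose and *Dnmt3l* fell, and 0 of 7 passed at 2 mo. After Win18446 the 3 *Tet* genes were lower under the label PRC1cKO. *Tet1* passed the filter on low values only through PRC1ctrl, and moved to -0.15 with the correction.

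At 2 mo, untreated Aundiff of the 2 PRC1 labels were compared. Of 7 genes tested 0 were called, where 0.222% of 13953 genes were called higher and 1.94% lower, and 0 of the 7 had an unadjusted p under 0.05, which 14.2% of genes had (limma). *Tet2* was below the filter. Of the 9 markers of undifferentiated spermatogonia 1 was lower in PRC1cKO at an adjusted p under 0.05, and of 6 of differentiating spermatogonia 0 passed (limma). The authors' own test on read counts, which was not repeated here, reported *Kit*, *Esx1* and *Crabp1* of the latter list as higher in PRC1cKO. A gene that did not pass here can therefore not be read as unchanged. The sums of both lists of spermatogonial markers differed between the labels, as given above. Of spermatid genes tested, 4 of 5 were lower in PRC1cKO at an adjusted p under 0.05, as were 2 of 5 spermatocyte genes (limma). The 6 Leydig cell genes summed to 1.04 to 1.21 TPM in PRC1ctrl and 21.0 to 48.0 TPM in PRC1cKO. Of 5 tested, 1 was higher (limma). The Sertoli cell and macrophage lists held 0 passing genes (limma). The part of cell state and of other cells in the values below was not tested. *Uhrf1* was at 5.37 and 6.09 TPM in PRC1ctrl and at 8.05 and 18.42 TPM in PRC1cKO. *Dnmt1* was at 12.53 and 9.06 TPM in PRC1ctrl and at 14.14 and 18.99 TPM in PRC1cKO. For both genes the libraries labelled PRC1cKO lay above the controls, as they did for 27.5% of genes, and the fits left wide intervals: the log2 fold change was 0.98 for *Uhrf1* (95% interval -0.29 to 2.25, adjusted p = 0.473, limma) and 0.58 for *Dnmt1* (-0.42 to 1.58, adjusted p = 0.587).

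*Dnmt3a* was at 96.36 and 36.1 TPM in PRC1ctrl and at 44.28 and 31.8 TPM in PRC1cKO. The log2 fold change of -0.64 (95% interval -1.96 to 0.68, adjusted p = 0.64, limma) rested on the first PRC1ctrl library, without which it was 0.055. *Dnmt3b* was at 19.49 and 16.03 TPM against 19.69 and 19.03 TPM, a difference of 0.12 on the log2 scale (-0.76 to 1.00) that was -0.18 under median-of-ratios scaling. *Dnmt3l* was at 2.37 and 5.28 TPM against 2.65 and 3.22 TPM. The values of the 2 labels overlapped for these genes.

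All 3 *Tet* genes were at 1.65 TPM or less in these 4 libraries. *Tet3* was at 0.99 and 1.38 TPM in PRC1ctrl and at 1.27 and 1.65 TPM in PRC1cKO, and *Tet1* was at 0.08 and 1.03 TPM against 0.27 and 1.09 TPM. *Tet2* was at 0.24 and 0.39 TPM in PRC1ctrl and at 1.49 and 0.97 TPM in PRC1cKO. Only for *Tet2*, which was below the filter and not tested, were the 2 labels apart, with PRC1cKO higher. Of the genes tested, 27.5% were apart in this direction. The 6 lists of partner genes named above held 0 genes past an adjusted p of 0.05 (limma), and their medians lay between 0.12 and 0.47, against 0.22 over all genes. Of the 17 S phase genes 0 passed as well (limma), with a median of 1.10, and their summed TPM was 952 and 1217.5 in PRC1ctrl and 1862 and 2193 in PRC1cKO, so that it was higher where *Uhrf1* and *Dnmt1* were. Its part in their values was not tested.

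After Win18446, PRC1ctrl and PRC1cKO Aundiff were compared with differentiation blocked in both. All 8 genes were tested. *Tet2* and *Tet3* were lower in PRC1cKO beyond the fold limit, and so was *Tet1*, which passed the filter on low values only through PRC1ctrl; 10.9% of 16521 genes were called lower. At the same time 0 of the 8 were called higher, where 1.27% were. The median log2 fold change of all genes was -0.19, and 0.03 under median-of-ratios scaling, where 23.0% of the genes called were higher, against 10.4% as deposited.

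*Tet3* was at 47.12 and 64.04 TPM in PRC1ctrl and at 8.08 and 12.99 TPM in PRC1cKO. *Tet2* was at 6.39 and 8.09 TPM in PRC1ctrl and at 0.76 and 1.41 TPM in PRC1cKO. *Tet1* was at 1.87 and 2.86 TPM in PRC1ctrl and at 0.47 and 0.71 TPM in PRC1cKO. For each of the 3, both PRC1cKO libraries lay below both controls, by a gap wider than the spread within either group. *Tet1* reached 1 TPM only in the PRC1ctrl libraries, so it was tested only through the group where it is high, and its values are read as a description. *Tet2* reached 1 TPM in both PRC1ctrl libraries but, of the PRC1cKO libraries, only in the second. Its entry into the test thus also leaned on the group where it is high, though it passed with no filter on low values as well (limma).

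*Tet3* fell by 2.31 ± 0.25 on the log2 scale (SE, n = 2 per group), 4.96-fold (adjusted p = 0.0029, limma). *Tet2* fell by 1.99 ± 0.23, 3.98-fold (adjusted p = 0.00263, limma). For *Tet1* the fit gave -1.07 ± 0.21 (adjusted p = 0.0117, limma), with the limit of its filter just named. On the log2(TPM + 1) scale the changes of *Tet1* and *Tet2*, which are low, are understated: with a pseudocount of 0.1 they were -1.83 and -2.68. The summed TPM of the 3 genes was 55.4 and 75.0 in PRC1ctrl and 9.31 and 15.1 in PRC1cKO, while the share of *Tet3* in that sum was 85.1% and 85.4% in PRC1ctrl and 86.8% and 86.0% in PRC1cKO.

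Long genes were lower in PRC1cKO as a class in this comparison. The median log2 fold change was -0.03 for genes whose longest annotated transcript is under 2000 bases, -0.15 from 2000 to under 4000 bases, -0.34 from 4000 to under 8000 bases and -0.69 at 8000 bases or more. Of 789 genes in the last class 30.3% were called lower, against 13.1% in the shortest class and 6.54% and 11.1% in the classes between, so this share did not rise steadily with length. The longest transcripts of *Tet1*, *Tet2* and *Tet3* have 14369, 9179 and 10904 bases, more than those of 99.5%, 97.2% and 98.5% of the genes tested. Set against the median of the last class, the log2 fold change was -1.62 for *Tet3*, -1.30 for *Tet2* and -0.38 for *Tet1*. With log values corrected per library for a trend on length, a step added after these data were seen, *Tet3* was at -1.55 (adjusted p = 0.00589, limma) and *Tet2* at -1.33 (adjusted p = 0.00739), while *Tet1* was at -0.15 (adjusted p = 0.535) and no longer passed.

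**Figure D4:**
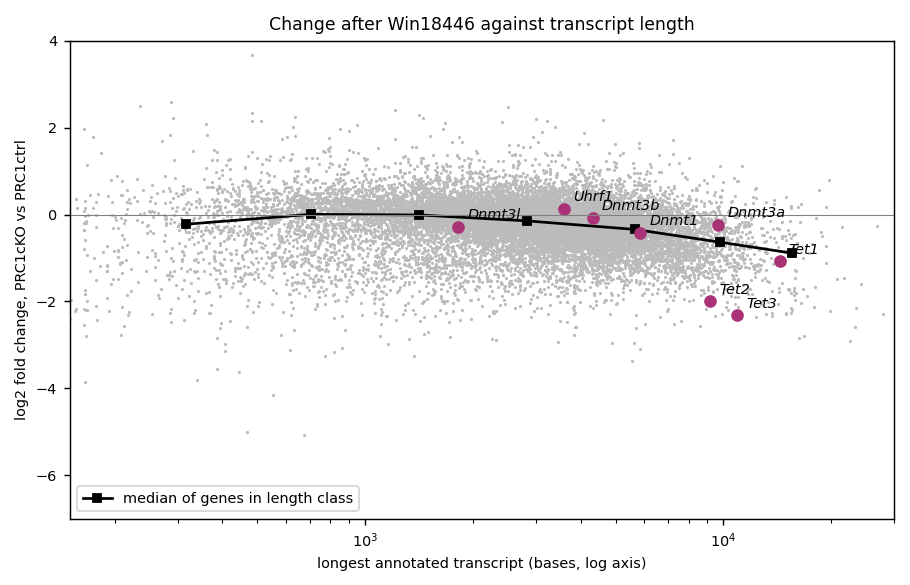
Log2 fold change of PRC1cKO against PRC1ctrl after Win18446 for each gene tested (grey), against its longest annotated transcript (log axis); squares are medians by length class, from -0.22 at 200 to 500 bases and 0.00 at 500 to 1000 bases to -0.89 at 12000 to 20000 bases, and purple points are the 8 genes. *Tet2* and *Tet3* lay below the medians at their length, *Dnmt3a* lay above it, and 118 genes fall outside the axes.

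The call of *Tet1* was also lost with no filter on low values (adjusted p = 0.0542), in a fit over all 12 libraries (adjusted p = 0.113) and without the first PRC1cKO library (adjusted p = 0.0837), all by limma. PRC1ctrl libraries had more genes at 1 TPM or more (16537 and 16599, against 15098 and 15208 in PRC1cKO). Markers of some other cells differed between the labels too. The summed TPM of 6 spermatid genes was 123 to 135 in PRC1ctrl, with 5 of 6 genes at 1 TPM or more in both libraries, and 23.3 to 25.4 in PRC1cKO, with 2 of 6. Of 6 spermatocyte genes 5 were lower in PRC1cKO at an adjusted p under 0.05 (limma), with a median log2 fold change of -1.10 over the list. The 6 Leydig cell genes summed to 397 and 82.1 TPM in PRC1ctrl and 73.2 and 20.6 in PRC1cKO. Macrophage genes (6) summed to 18.2 to 29.4 against 14.2 to 18.7 TPM, with 2 of 6 genes at 1 TPM or more in both libraries of each label. Sertoli cell genes (7) summed to 28.0 to 41.7 against 37.0 to 51.7 TPM. The macrophage and Sertoli sums overlapped between the labels. Of the Leydig, macrophage and Sertoli genes tested, 0 passed an adjusted p of 0.05 in either direction (limma). Of 6 markers of differentiating spermatogonia 5 were higher in PRC1cKO at an adjusted p under 0.05 and 1 was lower (limma), with *Kit* at 6.48 and 8.15 TPM in PRC1ctrl and 20.35 and 21.96 TPM in PRC1cKO. The part of these cells in the lower *Tet* levels was not tested.

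*Tet3* stood at 6.61 TPM in WT Aundiff and 16.8 TPM in WT Adiff, and the mean of PRC1ctrl after Win18446, 55.6 TPM, was above both, without overlap between any of the TruSeq groups. For *Tet2* the order was WT Adiff (0.265 TPM), PRC1ctrl at 2 mo (0.315), WT Aundiff (0.615), PRC1cKO after Win18446 (1.08), PRC1cKO at 2 mo (1.23) and PRC1ctrl after Win18446 (7.24); each of the first 5 groups overlapped its neighbour and the highest was apart. *Tet1* had the same form, with 5 overlapping groups at means of 0.385 to 0.860 TPM and PRC1ctrl after Win18446 apart at 2.37 TPM. Strain, the *Ring1* and *Rnf2* genotype with Cre, and treatment differ between WT and PRC1ctrl after Win18446 and cannot be told apart. The closest patterns to *Tet3* over the 12 libraries were *Ino80*, a chromatin remodelling ATPase (r = 0.994), and *Prrt2* (r = 0.988), to *Tet2* *Tut7* (r = 0.956) and *Nbeal1* (r = 0.952), and to *Tet1* *Fgd4* (r = 0.920) and *Gm7972* (r = 0.917).

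The 2 treatments were also set against each other in a test of whether the difference between the labels was the same at 2 mo and after Win18446 (limma interaction term over 8 libraries). It passed, beyond the fold limit, as lower for 2 of the 8 genes, *Tet2* and *Tet3*, where 4.98% of 18354 genes were called lower, and as higher for 0, where 2.76% were. Kit and treatment cannot be told apart in it. At 2 mo the PRC1ctrl libraries held *Tet2* at 0.24 and 0.39 TPM and *Tet3* at 0.99 and 1.38 TPM. From such levels a fall as large as that after Win18446 was not possible on the log2(TPM + 1) scale. The term therefore cannot tell a different effect of the label at 2 mo from a low level there. Both calls were lost when any 1 of the 4 Win18446 libraries was left out, and 1 of the 2 when the first PRC1ctrl or the second PRC1cKO library at 2 mo was.

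The methyltransferases differed less between the labels after Win18446, and 0 of the 5 genes, *Uhrf1* included, passed the test. *Dnmt1* was at 101.66 and 112.49 TPM in PRC1ctrl and at 68.2 and 93.34 TPM in PRC1cKO, without overlap. Its log2 fold change was -0.42 (95% interval -0.82 to -0.02, adjusted p = 0.1, limma), and it passed without the second PRC1cKO library (-0.64, adjusted p = 0.0426), but was 0.0011 with the length correction. *Uhrf1* was at 64.39 and 66.93 TPM in PRC1ctrl and at 67.63 and 77.21 TPM in PRC1cKO, also apart, with a log2 fold change of 0.14 (-0.15 to 0.42, adjusted p = 0.419, limma). The ratio of *Uhrf1* to *Dnmt1* TPM was 0.633 and 0.595 in PRC1ctrl and 0.992 and 0.827 in PRC1cKO. *Uhrf1* passed as higher, by 0.38, under median-of-ratios scaling (adjusted p = 0.0334) and, by 0.35, with the length correction (adjusted p = 0.0451).

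*Dnmt3a* was at 135.93 and 153.91 TPM in PRC1ctrl and at 110.77 and 136.51 TPM in PRC1cKO, and *Dnmt3b* at 52.6 and 61.65 TPM against 51.72 and 56.84 TPM. Both overlapped between the labels. The log2 fold changes were -0.23 (95% interval -0.57 to 0.10, adjusted p = 0.245, limma) for *Dnmt3a* and -0.07 (-0.38 to 0.24, adjusted p = 0.717) for *Dnmt3b*, and turned to 0.010 and 0.17 under median-of-ratios scaling. *Dnmt3a* has a longest transcript of 9685 bases and was the 1 gene of the 8 that the length correction moved from below 0 to a passing rise, of 0.46 (adjusted p = 0.02, limma). *Dnmt3a* made up 72.1% and 71.4% of the sum of *Dnmt3a* and *Dnmt3b* in PRC1ctrl and 68.2% and 70.6% in PRC1cKO, near the 69.5% and 70.5% of WT Aundiff. *Dnmt3l* was at 21.34 and 23.56 TPM in PRC1ctrl and at 16.35 and 20.42 TPM in PRC1cKO, apart, with a log2 fold change of -0.28 (-0.65 to 0.09, adjusted p = 0.209, limma). In all, 5 of the 8 genes were lower in both PRC1cKO libraries than in both controls, as were 49.3% of genes, and 1 was higher, as were 20.1%.

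The lists of partner genes were read at an adjusted p under 0.05 at any fold (limma), a mark that 26.7% of genes passed downward and 5.87% upward. Of 10 tested genes of de novo methylation in germ cells 7 were lower and 0 higher, with a median of -0.68. *Setd2* was at 72.43 and 69.72 TPM in PRC1ctrl and at 18.04 and 27.1 TPM in PRC1cKO, 3.12-fold lower, and *Nsd1*, another H3K36 methyltransferase, was at 108.44 and 124.11 TPM against 32.84 and 48.66 TPM, 2.85-fold lower. Of the 12 genes of the S-adenosylmethionine list 7 were lower and 0 higher, among them *Ahcyl1* (2.04-fold) and *Mat2a*, which makes S-adenosylmethionine (1.72-fold). Of 9 TET partners and 2-oxoglutarate enzymes 4 were lower and 0 higher, with *Ogt* 1.97-fold and *Hcfc1* 1.84-fold lower.

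Of 12 genes of demethylation and base excision 5 were lower and 0 higher, with *Apobec1* 1.58-fold and *Tdg*, the glycosylase that excises the oxidised bases made by TET, 1.52-fold lower. Of 7 methyl-CpG readers 2 were lower (*Zbtb38* 1.71-fold and *Mbd4* 1.68-fold) and 0 higher. Of 9 maintenance partners 2 were lower (*Uhrf2*, a paralogue of *Uhrf1*, 2.09-fold and *Usp7* 1.79-fold) and 1 was higher (*Pclaf* 1.54-fold). Of 17 S phase genes 4 were higher and 0 lower, with *Rrm2* 2.01-fold and *Ccne2* 1.66-fold higher, and the sum over the list was 1069 and 1106 TPM in PRC1ctrl and 1243 and 1314 TPM in PRC1cKO. These counts are set beside the background only, and the length trend above was not removed from them.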

How the data were processed

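RNA-seq was measured in 12 libraries. Per the methods and the submitters' processing notes, reads were trimmed with Trim Galore 0.6.6, aligned to GRCm38 with HISAT2 2.2.1 and filtered with SAMtools 1.9 to uniquely mapped reads, and TPM per gene, as deposited by the authors, came from RSEM 1.3.3, whose annotation and strand setting are not given in the sources used here. The counts behind the authors' own tests were not used here. TPM keep no read depth, so counting error is unknown, and they do not separate isoforms. Every column was matched to its sample by title.

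The TPM were put on the scale log2(TPM + 1), with no rescaling. Genes at 1 TPM or more in at least 2 of the libraries compared entered a limma fit (version 3.58.1, R 4.3.3; trend and robust moderation, two-sided), with Benjamini-Hochberg adjustment over all of them. A call required both an adjusted p under 0.05 and a log2 fold change beyond 1. SE and 95% intervals come from the fit, which was tested on simulated data. Each group had 2 libraries, given in the methods as independent biological replicates of pooled cells.

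The genes named are the 8, *Ring1*, *Rnf2*, up to 2 genes per direction with the largest passing changes in each partner list and comparison, and the 2 genes closest in pattern to each of the 8. A gene of the S-adenosylmethionine list that this rule selects is not reported here. *Kit*, other cell markers and *Dnmt3c* were named after their values were seen. Members, lists and tests were chosen with earlier results of these data known.

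Transcript lengths came from gencode vM21, in which 54851 of 55385 genes had the position given in the table, and promoter windows from RefSeq on GRCm38.p6, where 8 of 8 genes were found by name. The 25 bases from the start site were found in a vM21 transcript of the gene for all windows except that of *Dnmt3b* and the *Dnmt3a* window at chr12:3806730-3807029. The length correction subtracted, in each library, a smoothed trend of the deviations from each gene's mean on the log of its longest transcript.

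Alternatives were a pseudocount of 0.1, no filter, a filter for a mean of 5 TPM, median-of-ratios scaling, a replicate block, moderation without trend or robust options, a fit over all 12 libraries, each library left out, and, chosen after seeing the data, the length correction with and without the block. Software was Python 3.11.15 with numpy 2.4.6, pandas 2.3.3 and matplotlib 3.10.9.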

Additional observations from a re-analysis of the deposited data

Results flagged for a closer look

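The difference between the PRC1 labels was itself different between 2 mo and Win18446 for *Tet2* and *Tet3*, by a test of that difference (limma interaction term over 8 libraries, Benjamini-Hochberg over 18354 genes). For *Tet2* the term was -2.75 ± 0.35 (SE) on the log2(TPM + 1) scale, with an adjusted p of 0.0125 (limma). The PRC1cKO libraries stood above the controls at 2 mo, at 1.49 and 0.97 against 0.24 and 0.39 TPM, and below them after Win18446, at 0.76 and 1.41 against 6.39 and 8.09 TPM. In the comparison at 2 mo *Tet2* was below the filter, so its difference there was not tested. For *Tet3* the term was -2.48 ± 0.42, with an adjusted p of 0.0218 (limma). Its values overlapped between the labels at 2 mo, at 0.99 to 1.65 TPM, and were apart after Win18446. The median term of all genes was -0.41, and 0.11 under median-of-ratios scaling. Both calls were lost when any 1 of the 4 Win18446 libraries was left out, with adjusted p of 0.0503 to 0.0811 for *Tet2* and 0.0626 to 0.132 for *Tet3* (limma). That of *Tet3* was also lost without the first PRC1ctrl library (0.056) or the second PRC1cKO library (0.0641) at 2 mo, and with a pseudocount of 0.1 (0.0545). Kit and treatment cannot be told apart in this term. Both genes were so low in PRC1ctrl at 2 mo that a fall as large as that after Win18446 was not possible there on this scale. The term therefore cannot tell a different effect of the label at 2 mo from a low level there.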

How the results depend on the processing

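In WT Adiff against Aundiff, *Dnmt3l* was called lower and the same number of genes, 4, passed as higher at any fold under each alternative. Beyond the fold limit 3 were called higher under median-of-ratios scaling and 2 with the length correction, with or without the replicate block, because values fell under 1 on the log2 scale. *Dnmt3a* joined as lower, for 2 lower at any fold, under that scaling, with the block and with both forms of the length correction. Without 1 library, 4 were higher and 1 lower throughout. Over all genes 1724 were called higher and 1430 lower, and 1165 and 1748 under median-of-ratios scaling.

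At 2 mo, 0 genes passed under each alternative but 1, the length correction with the block, where 1 (*Dnmt3a*, -0.83, adjusted p = 0.0421, limma) was lower at any fold; over all genes 31 were called higher and 270 lower, 84 and 833 under median-of-ratios scaling, and 103 and 756 with the length correction. Signs turned, without passing, for *Dnmt3b* (-0.18) and *Tet3* (-0.0042) under median-of-ratios scaling and for *Dnmt3b* (-0.15) with both forms of the length correction. Without 1 library *Dnmt3a* ran from -1.34 to 0.055, *Dnmt3b* from -0.0094 to 0.26, *Dnmt3l* from -0.68 to 0.22 and *Tet1* from -0.32 to 0.50, each turning without a PRC1ctrl library.

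After Win18446, *Tet2* and *Tet3* passed wherever they were tested, at adjusted p of 1.06e-05 to 0.0307 and 0.00014 to 0.029 (limma). A filter for a mean of 5 TPM removed *Tet1* and *Tet2* and left 1 gene lower, also at any fold. Without 1 library 2 to 3 were called lower and 2 to 4 passed at any fold, and *Tet1* was not tested without either PRC1ctrl library. As higher at any fold passed 1 gene (*Uhrf1*) under median-of-ratios scaling and 2 (*Uhrf1* and *Dnmt3a*) with both forms of the length correction. Both forms turned *Dnmt1* to 0.0011, *Dnmt3a* to 0.46 and *Dnmt3b* to 0.21, and that scaling turned *Dnmt3a* to 0.010 and *Dnmt3b* to 0.17. *Dnmt3b* ran from -0.18 to 0.043 without 1 library. Over all genes 210 were called higher and 1807 lower, against 373 and 1246 with that scaling and 398 and 1018 with the length correction.

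The interaction passed for 2 genes, for 1 with a pseudocount of 0.1, for 1 with the filter for a mean of 5 TPM, which removed *Tet2*, and for 0 to 2 without 1 library. *Dnmt3b* turned to 0.50 and *Dnmt3l* to 0.58 under median-of-ratios scaling, and to 0.34 and 0.28 with both forms of the length correction. Without 1 library *Dnmt3l* ran from -0.50 to 0.40 and *Dnmt3a* from -0.29 to 1.10. Over all genes 506 were called higher and 914 lower, and 866 and 293 under that scaling. Where no construction is named, the cause was not tested.

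Same-numbered libraries deviated together weakly, with correlations of 0.16, 0.38 and 0.12 in the 3 comparisons, and no source says that a number marks a shared preparation. With the replicate block alone, 4 genes were higher in WT and 2 lower at any fold (*Dnmt3a* with an adjusted p of 0.0379, limma), 0 passed at 2 mo, 3 were called lower after Win18446 and 4 at any fold (*Dnmt1* with an adjusted p of 0.0345, limma), and 2 passed in the interaction. *Tet1*, among the 3 called lower after Win18446, entered the test only through PRC1ctrl. With 2 libraries per group and no read depth, the wide intervals at 2 mo and the low *Tet1* and *Tet2* levels limit what could be detected.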
